A study of Mus musculus with 8 samples.

Results

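The Rab, Arf and Arl genes encode small GTPases that direct membrane traffic, and 73 of them were measured among 19938 genes on arrays of mouse hemophagocytes and resting splenic macrophages. Members were all genes whose symbol in the platform annotation is Rab with a number and an optional letter, Arf1 to Arf6, or Arl with a number and an optional letter, so that effectors such as the Rab11fip proteins were left out. There were 59 Rab genes, 6 Arf genes and 8 Arl genes. Of 85 mouse symbols of this form in RefSeq (GRCm38.p6), 12 had no probe set assigned to that gene alone in the annotation used, namely those of the Arl4, Arl5, Arl6, Arl8, Arl10 and Arl13 groups, and were not analysed here. For each gene the brightest of its single-gene probe sets was used, by the mean of the 8 arrays, and 4 members (Arf1, Rab2a, Rab5b and Rab11b) had another probe set.

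Both groups were male wild-type C57Bl/6j mice, 8 wks old. Hemophagocytes, which are macrophages that have engulfed blood cells, came from mice given 4 intraperitoneal doses of 37.5 ug CpG1826, a stimulant of Toll-like receptor 9, with 200 ug of clone 1B1.3A, an antibody that blocks the IL-10 receptor. Resting macrophages came from mice given 4 doses of 200 uL PBS on the same schedule. Each group had 4 arrays, numbered 2, 3, 5 and 6 for hemophagocytes and 3, 4, 5 and 6 for resting macrophages. From each mouse, 20 target cells were cut out of spleen touch preparations by laser and pooled, and the RNA was amplified before hybridisation, per the labels' protocols. Macrophages of treated mice that had not engulfed cells were not arrayed here, so engulfment and treatment cannot be told apart. In such pools, fewer cells of a type and less RNA per cell cannot be told apart either.

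Small GTPases of this superfamily switch between a GDP-bound and a GTP-bound form, and the GTP-bound form sits on a membrane and recruits effectors that bud, move, tether or fuse vesicles. Exchange factors load GTP, GTPase-activating proteins end the signal, and Rab proteins need lipid tails and a chaperone to reach and leave membranes. In macrophages the family is known for phagocytosis: Arf6 acts at the plasma membrane where the phagocytic cup forms, Rab5 proteins mark the early phagosome, and Rab7 drives its fusion with lysosomes. These proteins are regulated mainly through their nucleotide state and place in the cell, which an array of transcripts does not measure.

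Values are on the log2 scale as deposited, so 1 unit is a 2-fold difference, and every change is hemophagocyte minus resting macrophage. The array medians lay between 6.10 and 6.17. A set of 1194 olfactory and vomeronasal receptor genes, most of which macrophages are not known to use, served as a measure of array background. Their 95th percentile ran from 7.42 to 7.72 on hemophagocyte arrays and from 7.69 to 7.81 on resting arrays. Macrophage markers were unevenly present: of 16 measured, 5 and 6 exceeded that percentile on hemophagocytes 3 and 5, 1 and 0 on hemophagocytes 2 and 6, and 0 to 2 on resting arrays. Of these markers, Cd68 reached 9.66 (hemophagocyte 3) and 10.52 (hemophagocyte 5) and ran from 7.21 to 7.50 elsewhere. Adgre1 reached 7.38 on hemophagocyte 5 alone and ran from 5.53 to 5.89 elsewhere, and Csf1r lay between 6.06 and 6.48 on all 8 arrays. Lyz2 stood at 5.86, 9.95, 9.96 and 6.55 on hemophagocytes 2, 3, 5 and 6. On resting macrophages 3, 4, 5 and 6 it stood at 8.89, 8.86, 8.71 and 7.45. Hemophagocytes 2 and 6 thus lay below every resting value of Lyz2. Measured T, B and NK cell and red cell markers exceeded the percentile on 0 of 8 arrays, 1 of 6 dendritic cell markers (Ccr7) did so on each array, and platelet markers did so by at most 2 of 5 genes on an array. Neutrophil markers did so by 2 of 9 genes on hemophagocyte 3, by 1 on hemophagocyte 2 and by none on the other arrays.

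As a group the probe set values of the Rab, Arf and Arl genes differed little between hemophagocytes and resting macrophages. Only 3 of the 73 exceeded the receptor genes' 95th percentile on any array, so whether the transcripts of the others differed cannot be told. None of the 73 genes passed the test (0 higher and 0 lower; limma, adjusted p of 0.747 to 0.999), where 0.0100% of all genes were called higher and 0.00% lower at an adjusted p under 0.05. Arf6 had the largest change, 0.90, and was the 1 member that moved by more than 0.5 in either direction. The other 72 changes ran from -0.24 (Rab18) to 0.32 (Arl1). The median change was 0.003, beside -0.037 over all genes, and 38 of 73 members (52.1%) had a change above 0, beside 36.1% of all genes.

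At an unadjusted p under 0.05 there was 1 member higher, Arf6, and 1 lower, Rab18, where 1.53% of all genes were higher and 5.05% lower by that rule. The groups did not overlap in 0 members with higher values and in 1 with lower values, Rab18, where 0.802% and 2.90% of all genes were of these kinds. Both counts of members lie near or under these shares of all genes. The balance over all genes depended on the scaling: cyclic loess normalization gave 611 higher against 549 lower by the unadjusted p, where the values as deposited gave 306 against 1006. Without overlap it gave 369 against 307, where the values as deposited gave 160 against 579. The intervals around the changes were narrow: the 95% confidence interval lay within 0.5 log2 units of 0 (1.41-fold) in 71 of 73 members, or 97.3%, beside 92.4% of all genes. The members outside that range were Arf6 and Arl1. Where array background remains in the values, the change of a dim transcript may be larger than these values show, by an amount that was not measured.

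**Figure D1:**
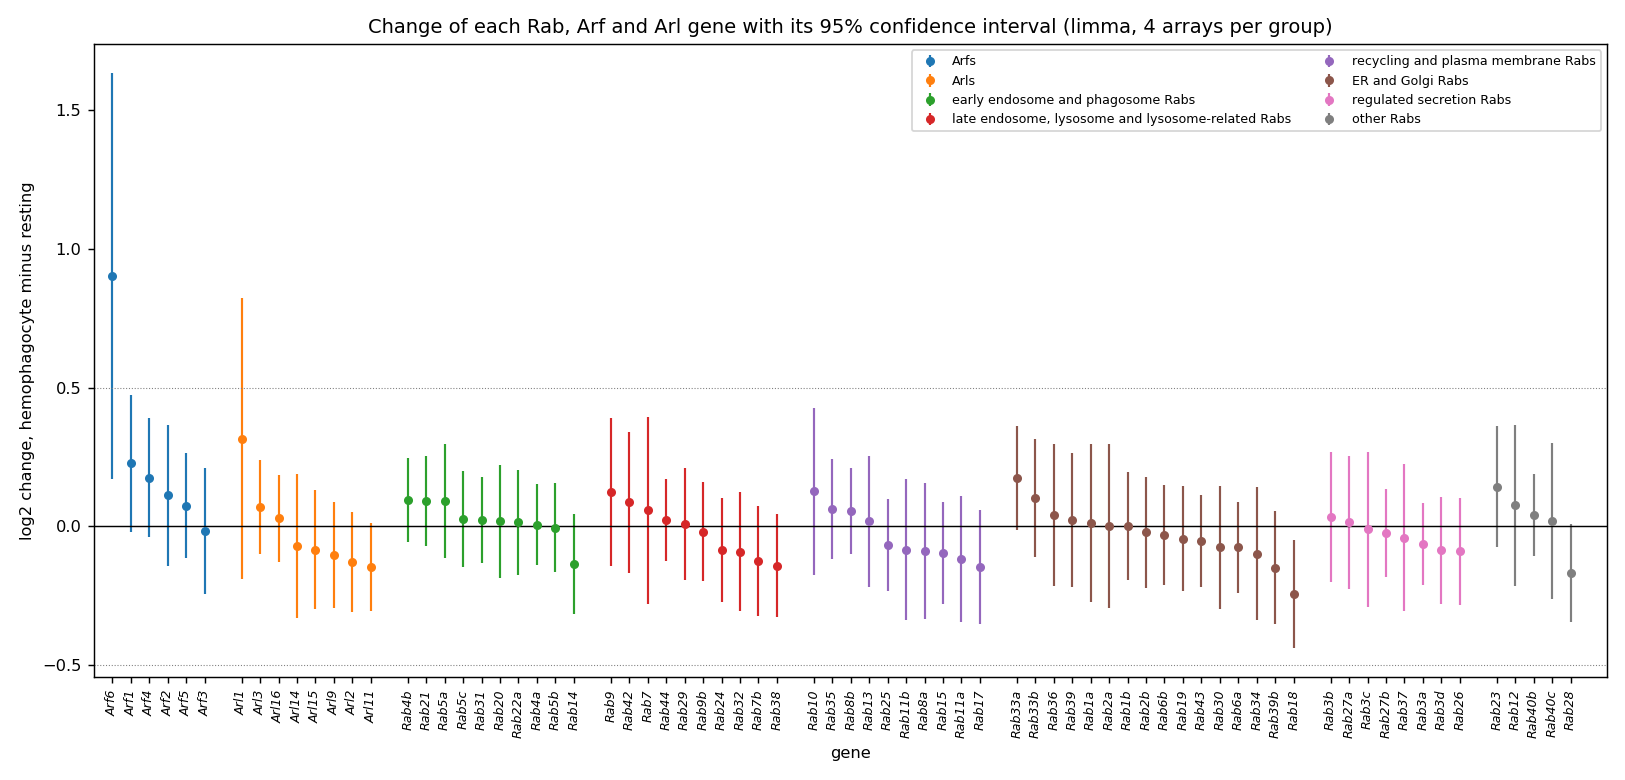
The plot of changes gives the log2 change (hemophagocyte minus resting macrophage, points) of each of the 73 genes with its 95% confidence interval (lines), coloured by site of action; dotted lines mark 0.5 log2 units either way. Arf6 stands at 0.90, and the other 72 genes lie between -0.24 and 0.32.

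Few members rose clearly above the array background. Only 3 of the 73 (Arf6, Arl2 and Rab7) exceeded the receptor genes' 95th percentile on any array, or 4.11%, beside 6.93% of all genes, and 0 members did so on all 8 arrays. Arl2 did so on all 4 hemophagocyte arrays and on resting macrophages 3, 5 and 6, Arf6 on hemophagocytes 3 and 5, and Rab7 on hemophagocyte 3. A probe set below that percentile may still report a transcript, since probe sets differ in their response, and whether the other members were detected cannot be told from these values.

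**Figure D2:**
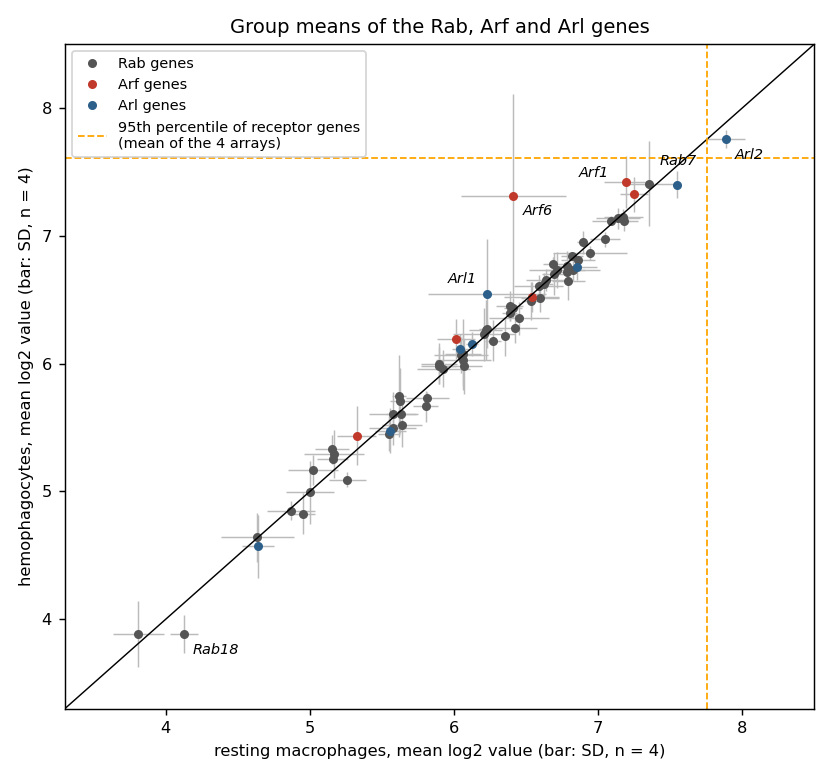
The plot of group means sets the mean log2 value of each gene on the 4 hemophagocyte arrays (vertical axis) against that on the 4 resting arrays (horizontal axis), with bars of 1 SD; the black line marks equal means and the dashed lines the receptor genes' 95th percentile, averaged over each group's 4 arrays. The points follow the line of equal means from Rab12 and Rab18 at the dim end to Arl2 at the bright end, with Arf6 and its long hemophagocyte bar above it.

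Arf6, which controls membrane recycling and actin at the plasma membrane and is needed for Fc receptor phagocytosis in macrophages, was high on 3 of the 4 hemophagocyte arrays. It stood at 6.13, 7.73, 7.78 and 7.61 on hemophagocytes 2, 3, 5 and 6, and at 6.04, 6.17, 6.79 and 6.65 on resting macrophages 3, 4, 5 and 6. The groups overlapped because hemophagocyte 2 lay among the resting arrays, while the other 3 hemophagocytes lay above every resting value. The means were 7.31 ± 0.79 and 6.41 ± 0.36 (SD, n = 4 each), a log2 change of 0.90 (SE 0.33, 95% interval 0.17 to 1.63, limma adjusted p = 0.747), or 1.87-fold, and it did not pass. Without hemophagocyte 2 the change was 1.30 and limma gave adjusted p = 0.0436, and Arf6 was then 1 of 11 genes called over the whole table. Leaving out any of the other 7 arrays gave changes of 0.75 to 1.03, with no call. With a block for arrays of equal number, where hemophagocyte 2 has no partner and does not enter the estimate, Arf6 was not called. The change was then 1.22 (limma adjusted p = 0.163). Without hemophagocytes 3 and 5, the arrays on which Cd68 was high, the change was 0.46 (limma adjusted p = 0.963). These arrays also held the 2 highest Arf6 values, so that fit cannot tell whether Arf6 went with Cd68. Hemophagocyte 6, where Arf6 was high as well, had Cd68 at 7.50, equal to the highest resting value at 2 decimals. Its Lyz2 value, 6.55, lay below every resting value. The mean of the 16 macrophage markers was 6.49, 6.93, 7.48 and 6.55 on hemophagocytes 2, 3, 5 and 6 and 6.60 to 6.74 on resting arrays. The mean of the 9 neutrophil markers was 6.27, 6.81, 6.48 and 6.52 against 6.30 to 6.39. Of the 9, 3 had a change above 0, namely S100a8 (1.12), S100a9 (0.98) and Mpo (0.05), and the others were below 0. The part of either list in the Arf6 values was not tested.

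The other Arf genes, which recruit coats at the Golgi apparatus, had small changes that did not pass. Arf1, which recruits the COPI coat, stood at 7.17, 7.38, 7.47 and 7.65 on hemophagocytes, beside 7.32, 7.06, 7.06 and 7.32 on resting macrophages. Of the 4 hemophagocyte values 3 lay above every resting value, and the change was 0.23 (SE 0.11, limma adjusted p = 0.747). The second Arf1 probe set was dimmer, at 6.34 to 6.76 on hemophagocytes and 6.28 to 6.46 on resting arrays. Arf4, which works between the endoplasmic reticulum and the Golgi, stood at 6.05, 6.18, 6.41 and 6.12 against 6.10, 6.13, 5.84 and 5.99, with the groups overlapping and a change of 0.18. Changes were 0.11 for Arf2, 0.07 for Arf5 and -0.02 for Arf3, so 5 of the 6 Arf genes had a change above 0. Arf1 to Arf5 are close in sequence, and whether their probe sets share signal was not tested.

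**Figure D3:**
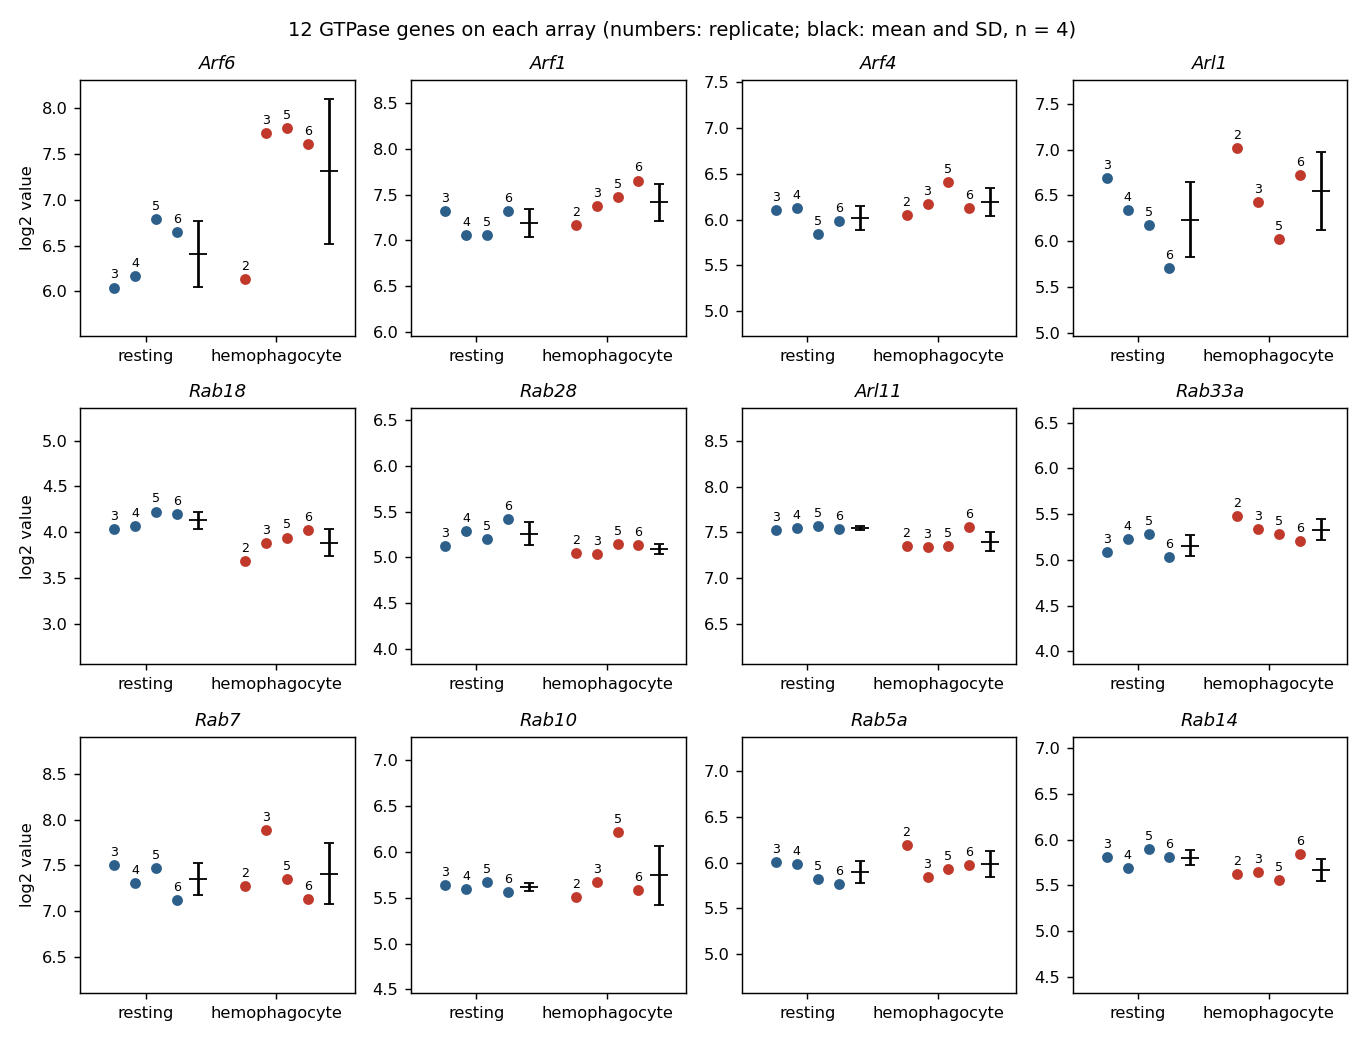
The plots by array show the log2 value of 12 genes on each resting (blue) and hemophagocyte (red) array, numbered by replicate, with the mean and SD of each group in black; each panel spans the same range of log2 units. Arf6 is high on hemophagocytes 3, 5 and 6 and not on 2, whereas Rab7 is high on hemophagocyte 3 alone and Rab10 on hemophagocyte 5 alone.

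Of the Arf-like genes, Arl1 varied most. Arl1, which brings golgin tethers to the trans-Golgi, stood at 7.02, 6.43, 6.02 and 6.72 on hemophagocytes, beside 6.69, 6.34, 6.18 and 5.71 on resting macrophages. Hemophagocyte 2 was the highest of all 8 arrays, and hemophagocyte 5 lay under 3 of the resting arrays. Its SDs, 0.43 and 0.41, exceeded the change of 0.32 (SE 0.23, limma adjusted p = 0.773). Arl11, which acts in macrophage activation, stood at 7.35, 7.34, 7.35 and 7.56 on hemophagocytes, beside 7.52, 7.55, 7.57 and 7.54 on resting macrophages. Hemophagocytes 2, 3 and 5 lay below every resting value and hemophagocyte 6 among them, and the change was -0.15 (SE 0.07, limma adjusted p = 0.747). Arl2, a partner of the tubulin folding cofactors, stood at 7.70, 7.69, 7.84 and 7.80 against 7.76, 7.79, 7.96 and 8.03, and its groups overlapped (change -0.13). The remaining Arl genes, Arl3, Arl9, Arl14, Arl15 and Arl16, had changes of -0.10 to 0.07, among them Arl3, which releases lipid-tailed cargo into cilia, at 0.07.

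The Rab genes of early endosomes and phagosomes had changes of -0.14 to 0.09, and 0 of 10 passed. Rab5a, which drives early endosome fusion, stood at 6.19, 5.84, 5.93 and 5.98 on hemophagocytes, beside 6.01, 5.98, 5.82 and 5.76 on resting macrophages, with the groups overlapping (change 0.09, 95% interval -0.11 to 0.30). Its paralogs Rab5b and Rab5c had changes of -0.00 (95% interval -0.16 to 0.16) and 0.03 (-0.15 to 0.20). None of the 3 Rab5 intervals reached 0.5 log2 units in either direction. None of these 3 genes exceeded the receptor genes' 95th percentile on any array, so the intervals bound probe set signal that may include background. Rab14, which moves cargo between the Golgi and endosomes and is found on phagosomes, stood at 5.63, 5.64, 5.55 and 5.84 against 5.81, 5.69, 5.90 and 5.81, so that 3 hemophagocytes lay below all resting arrays (change -0.14, limma adjusted p = 0.754). Rab20, which is induced by interferon gamma and acts in phagosome maturation, had means of 6.61 ± 0.08 and 6.59 ± 0.17 (SD, n = 4 each). Rab22a and Rab31, of the same branch of the family as Rab5, had changes of 0.02 and 0.02. Rab4b and Rab4a of fast recycling had 0.09 and 0.01, and Rab21, which carries integrins, had 0.09.

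Rab genes of late endosomes, lysosomes and related organelles had changes of -0.14 to 0.12 with 0 of 10 past the threshold. Rab7, which brings late endosomes and phagosomes to fusion with lysosomes, stood at 7.27, 7.89, 7.35 and 7.13 on hemophagocytes, beside 7.50, 7.31, 7.47 and 7.12 on resting macrophages. Hemophagocyte 3 alone stood above the resting range, and the other 3 lay inside it (change 0.06, SE 0.15, limma adjusted p = 0.941). With the receptor genes' mean as a covariate for array background the Rab7 change was -0.22 (limma adjusted p = 0.972), and without hemophagocyte 3 it was -0.10, so its direction depended on these choices. Rab7b, which in macrophages limits Toll-like receptor signalling, stood at 4.70, 4.69, 4.91 and 5.01 against 5.01, 5.03, 4.90 and 4.86 (change -0.12). Its groups overlapped. Rab9, which returns receptors from late endosomes to the Golgi, had a change of 0.12. Rab32 and Rab38, a related pair that supplies lysosome-related organelles such as melanosomes, had changes of -0.09 and -0.14. Rab38 lay at 6.33 to 6.37 on all resting arrays, while hemophagocytes ran from 6.04 to 6.38. In Rab42, hemophagocyte 2 reached 6.06 and the other 7 arrays lay between 5.49 and 5.74.

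Recycling and plasma membrane Rab genes had changes of -0.15 to 0.13, and 0 of 10 passed. Rab10, which delivers vesicles to the cell surface and carries Toll-like receptor 4 in macrophages, stood at 5.50, 5.67, 6.22 and 5.59 on hemophagocytes, beside 5.64, 5.60, 5.67 and 5.57 on resting macrophages. Only hemophagocyte 5 was high, by 0.60 above the gene's own median of 8 arrays. The change was 0.13 (SE 0.14, limma adjusted p = 0.841). Rab11a, the main Rab of slow recycling, had a change of -0.12 and its paralog Rab11b one of -0.08. For Rab8a and Rab8b, which act in exocytosis, the changes were -0.09 and 0.06. Rab35, of fast recycling, had a change of 0.06, and the epithelial members Rab17 and Rab25 had changes of -0.15 and -0.07.

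Among the Rab genes of the endoplasmic reticulum and Golgi, Rab18 had the largest change and 0 of 16 passed. Rab18, which acts at the endoplasmic reticulum and on lipid droplets, stood at 3.68, 3.88, 3.94 and 4.03 on hemophagocytes, beside 4.03, 4.06, 4.22 and 4.19 on resting macrophages. All hemophagocytes lay below all resting arrays, although the nearest pair, hemophagocyte 6 and resting macrophage 3, touched at 4.03 when rounded. The change was -0.24 (SE 0.09, limma adjusted p = 0.747). After quantile normalization or median centring the Rab18 groups overlapped, and its values lay in the dim part of the arrays, where the receptor genes' 5th percentile ran from 3.44 to 3.85. Rab33a, a Golgi Rab, stood at 5.48, 5.34, 5.29 and 5.21 against 5.08, 5.23, 5.28 and 5.03, with hemophagocytes 2, 3 and 5 above every resting value (change 0.17, limma adjusted p = 0.747). Rab33b, which binds the autophagy protein Atg16l1, had a change of 0.10. Rab1a and Rab1b, which carry cargo from the endoplasmic reticulum to the Golgi, had changes of 0.01 and 0.00, Rab2a and Rab2b of 0.00 and -0.02, and Rab6a and Rab6b of the Golgi of -0.07 and -0.03. Rab34, which positions lysosomes and is found on phagosomes, had a change of -0.10, and Rab39b, known for its role in neurons, one of -0.15.

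The Rab genes of regulated secretion had the narrowest range of changes of the groups, -0.09 to 0.03 and 0 of 8 past the threshold. Rab27a docks secretory granules, and its loss in people causes a form of Griscelli syndrome with hemophagocytic disease. It stood at 6.56, 6.81, 6.87 and 6.68 on hemophagocytes, beside 6.73, 6.98, 6.63 and 6.52 on resting macrophages, with overlapping groups (change 0.01, 95% interval -0.22 to 0.25). The change of Rab27b was -0.02, and those of Rab3a, Rab3b, Rab3c and Rab3d, which act on secretory vesicles, were -0.06, 0.03, -0.01 and -0.09. Of the 5 members with other or less settled roles, Rab28 stood at 5.05, 5.04, 5.14 and 5.14 against 5.13, 5.29, 5.20 and 5.42 (change -0.17, SE 0.08, limma adjusted p = 0.747). Its 2 lower hemophagocytes lay below the resting range and the other 2 just above the lowest resting value. The change was 0.14 for Rab23, which restrains Hedgehog signalling, 0.08 for Rab12, 0.04 for Rab40b and 0.02 for Rab40c.

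High single values, in Arf6, Arl1, Rab7 and Rab10, fell on hemophagocyte arrays. Low ones, in Arf6 and Arl1, fell on arrays of both groups. A member stood more than 0.5 above its own median of 8 arrays once on hemophagocyte 2 (Arl1), in 2 genes on hemophagocyte 3 (Arf6 and Rab7), in 2 on hemophagocyte 5 (Arf6 and Rab10), once on hemophagocyte 6 (Arf6) and in 0 genes on each resting array. For all genes the same was true of 0.577%, 1.77%, 1.64% and 0.386% on those 4 arrays and of 0.286% to 0.487% on resting arrays. Hemophagocytes 3 and 5 thus had the highest shares over all genes, while hemophagocyte 6 lay within the resting range. More than 0.5 below its own median stood 1 member each on hemophagocyte 2 (Arf6) and on resting macrophages 3 (Arf6), 4 (Arf6) and 6 (Arl1). The other arrays had 0 such members, and the share of all genes that stood so low was not counted. The members' median SD was 0.132 in hemophagocytes and 0.126 in resting macrophages, and 41 of 73 members (56.2%) had the larger SD in hemophagocytes, beside 60.3% of all genes.

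**Figure D4:**
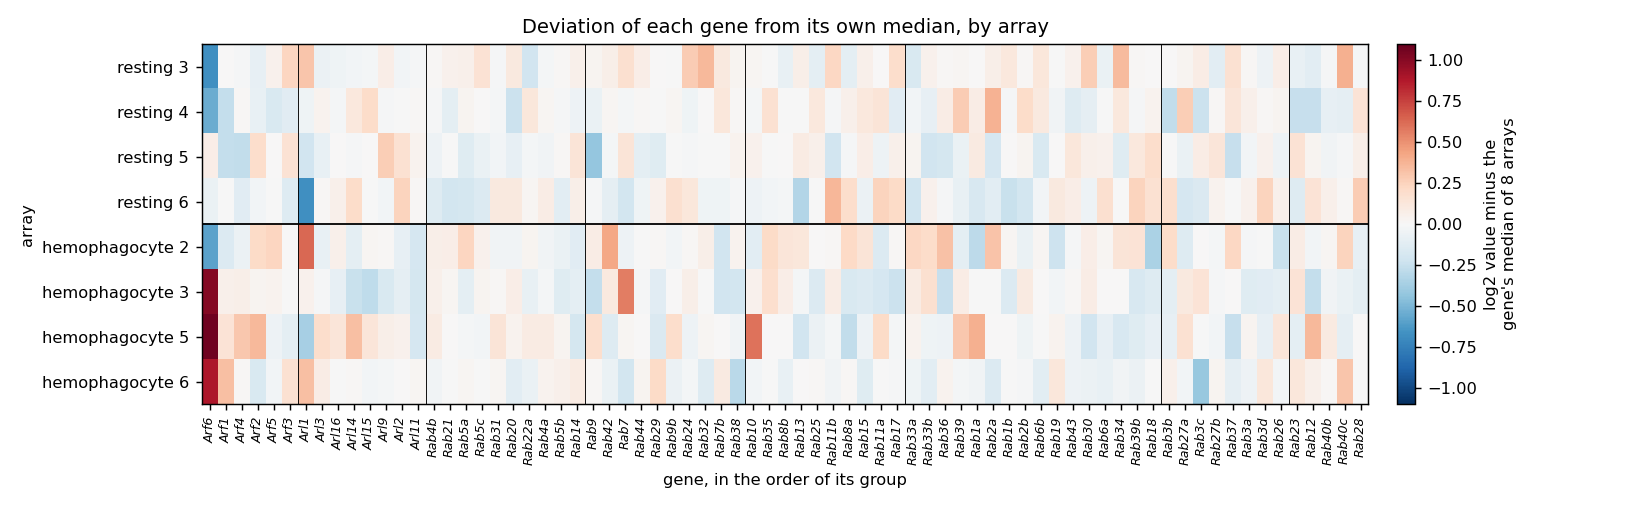
The heat map shows, for each array (rows) and gene (columns, in the order of the plot of changes), the log2 value minus the gene's own median of 8 arrays, from blue (lower) to red (higher). Arf6 carries most of the strong colour, with single red cells for Arl1 on hemophagocyte 2, Rab7 on hemophagocyte 3 and Rab10 on hemophagocyte 5.

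The genes of proteins that load, switch off or read these GTPases did not pass either. Of 185 listed symbols 174 were measured, and 0 were called higher and 0 lower (limma, smallest adjusted p = 0.747). At an unadjusted p under 0.05, 2 were higher and 6 lower, and the groups did not overlap in 2 and 6, beside the shares of all genes of 1.53% and 5.05%, and 0.802% and 2.90%. The median change was -0.022 and 72 of 174 (41.4%) had a change above 0. Changes above 0 were found in 6 of 7 genes of Rab loading and lipid attachment, 11 of 28 Rab exchange factors, 10 of 34 Rab GTPase activators and 22 of 42 Rab effectors and tethers. For Arf proteins they were found in 3 of 15 exchange factors, 9 of 23 GTPase activators and 11 of 25 effectors, which include those of Arl proteins, beside 36.1% of all genes.

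Dennd4a, an exchange factor of Rab10, had the smallest p of the regulators. It stood at 7.98, 7.96, 7.80 and 7.75 on hemophagocytes, beside 8.20, 8.20, 8.18 and 8.04 on resting macrophages, with no overlap (change -0.28, SE 0.08, limma adjusted p = 0.747). Psd3 and Cyth2, exchange factors that act on Arf6, had changes of -0.23 and -0.20, and Agfg2, of the Arf GTPase activator family, had -0.24. Of those with higher values, Dennd1c, an exchange factor, had a change of 0.26, Chml, an escort of newly made Rab proteins to lipid attachment, 0.26, Agap1, an Arf GTPase activator, 0.18 and Ehbp1l1, an effector of Rab8, 0.12. None of these 8 passed. When a gene's probe sets were averaged, the changes of Dennd4a and Psd3 were -0.13 and -0.11.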

How the data were processed

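Affymetrix mouse Gene ST 1.0 arrays were used, and the authors deposited log2 values (the scale was taken from the range of the values). The submitters' processing notes name Affymetrix Expression Console 1.1. How background was corrected and probes were summarised and normalized was not given in the sources used here. Arrays have no read depth, and 4 arrays per group limit the precision. The labels do not say whether arrays came from separate mice, so p-values reflect just the spread of these samples, possibly technical.

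Of 35556 probe sets, 21789 had 1 gene symbol, 1621 had several and 12146 were not named in the annotation used; those with 1 symbol gave 19938 genes. No filter was applied. All genes were fitted without a block by lmFit and eBayes of limma 3.58.1 under R 4.3.3. P-values were adjusted over the whole table by Benjamini-Hochberg, with calls at 0.05; the script was tested on simulated data. Groups came from the labels. Intervals are limma's 95% confidence intervals. No gene set test was run.

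Members, roles and regulator and marker lists were chosen with earlier results of these data known. Named members were those past the threshold, the 8 of smallest p in each direction, the 6 with the highest single array over their own median, those without overlap and a list of phagosome and endosome members; others are given by value for completeness. Of regulators, up to 4 in each direction by p were named. Alternatives were 3 normalizations, a filter on dim genes, a variance trend with a robust prior, array weights, averaged probe sets, a background covariate, arrays left out and a block. Equal replicate numbers were checked for shared deviations (correlations of 0.174, 0.066 and 0.118 for numbers 3, 5 and 6) and were not taken as pairs.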

Additional observations from a re-analysis of the deposited data

Results flagged for a closer look

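In 7 of 86 groups of 4 arrays, for the genes named by rule and the 2 genes called over the whole table, 1 array stood far from the other 3; chance flags about 1 in 20 groups of genes not chosen by their values, and since many of these genes were so chosen, the count cannot be read against that rate. Arf6 was 6.13 on hemophagocyte 2, whereas hemophagocytes 3, 5 and 6 ran from 7.61 to 7.78. Arl11 reached 7.56 on hemophagocyte 6, with the other 3 at 7.34 to 7.35. Rab17 was lowest on hemophagocyte 3, at 6.1 (others 6.32 to 6.35). On resting arrays, Rab32 reached 7.1 on resting macrophage 3 (others 6.7 to 6.75) and Rab31 reached 6.5 on resting macrophage 6 (others 6.37 to 6.39). Of the regulators, Dennd1c stood at 6.84 on hemophagocyte 6 (others 6.5 to 6.54) and Dennd4a at 8.04 on resting macrophage 6 (others 8.18 to 8.2).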

How the results depend on the processing

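No Rab, Arf or Arl gene was called in 17 of 18 alternative settings. The exception was the fit without hemophagocyte 2, which called 1 member, Arf6, so that the count ran from 0 to 1 when single arrays were left out. The members' median change ran from -0.019 to 0.043, on both sides of 0. Regulators gave 0 calls in every setting run. Over all genes, 2 were called, and 1 with median centring, cyclic loess, the intensity trend and robust prior, and the array background covariate. That count ran from 1 to 11 when single arrays were left out and was 7 in the fit with the replicate block. With the replicate block Arf6 had a change of 1.22 and limma gave adjusted p = 0.163. Hemophagocyte 2 and resting macrophage 4 have no array of the same number in the other group. The changes with the block, and its 7 calls over all genes, therefore rest on the arrays numbered 3, 5 and 6. The Arf6 change ran from 0.46 to 1.30 over the 18 settings (limma adjusted p from 0.0436 to 0.974), and the Rab18 change from -0.29 to -0.18 over the 17 in which it was tested. Members at an unadjusted p under 0.05 numbered 1 to 4. The 4 came with median centring, cyclic loess, the replicate block, and without hemophagocyte 2 or 6. Of 19938 genes, 495 higher and 691 lower met that p with median centring, and 611 and 549 with cyclic loess. Counts were 365 and 1132 with the block, 299 and 1032 without hemophagocyte 2, and 366 and 1192 without hemophagocyte 6. The values as deposited gave 306 and 1006. Members without overlap numbered 0 to 5, the 5 without hemophagocyte 2 or without hemophagocyte 6. Over all genes those without overlap went from 160 higher and 579 lower to 297 and 1252 without hemophagocyte 2, and to 330 and 1198 without hemophagocyte 6. Of 33 named members, 20 kept the sign of their change in every setting run, and the 13 that did not all had changes of at most 0.126 in size. Besides Rab7 and Dennd4a, the values that moved by more than the spread between replicates were Psd3 with averaged probe sets (-0.11) and Ehbp1l1 with the background covariate (0.07). For dim members, signal near array background limits what can be seen.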
